A study of Mus musculus with 12 samples.

Results

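Fgf4 and 8 further genes of the FGF and ERK pathway were followed over the first 3 days of a course that deletes Hdac1 and Hdac2 in mouse embryonic stem (ES) cells. The genes were Fgf4, the receptors Fgfr1 and Fgfr2, the feedback inhibitors Spry2, Spry4, Spred1 and Dusp6, and the ETS transcription factors Etv4 and Etv5. All probes that the array's annotation gives to these 9 symbols were taken, which were 16 of the 45281 probes of the table. Of these 16 probes, 10 probes of 8 genes were detected often enough to be tested, among 14940 probes tested in all. The set was chosen by the values of Fgf4 and Fgfr2, of which Fgf4 was much lower and Fgfr2 higher on day 3 than on day 0, so the values of these 2 genes in that contrast, and in every contrast that shares its arrays, are given as a description with no test. The other 7 genes were named for their place in the pathway, and 6 of them had a tested probe. All 7 were named with earlier results of these data known, so their tests are not free of selection.

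FGF4 is the main fibroblast growth factor that mouse ES cells make and secrete. It binds FGF receptors together with heparan sulfate chains on the cell surface, and the receptors signal through RAS, RAF and MEK to the kinase ERK. In ES cells this signal prepares the cells to leave the pluripotent state, and in the early mouse embryo FGF4 from the epiblast acts through its receptors on the neighbouring primitive endoderm and trophoblast. ERK switches on ETS factors such as Etv4 and Etv5, and also its own inhibitors of the Sprouty, Spred and Dusp families, so the mRNA levels of these genes are widely used as a readout of the pathway.

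The cells were E14 ES cells of the genotype Hdac1lox/lox, Hdac2lox/lox; CreER, with loxP sites in each copy of the 2 deacetylase genes. CreER is a Cre recombinase that works once 4-hydroxytamoxifen (OHT) is present, and OHT was given for 16 hours. The later groups were day 1, day 2 and day 3 of this course, and the group they were compared with was day 0, with 3 Illumina bead arrays each and 12 in all. All groups share the line, its floxed alleles, CreER, and feeder-free culture on gelatin in serum with LIF. Sample labels name OHT for day 0 too, but the design text describes that group as wild type, and which of these applies is not given in the sources used here. Days in culture, OHT and the deletion cannot be told apart here, since all samples used are of this 1 floxed line.

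Between 14509 and 16770 probes were detected per array, and arrays of the same day correlated at 0.977 to 0.992 across the tested probes. No probe was named Hdac1. Hdac2 had 2 probes, and whether either lies in the deleted part is not given in the sources used here. The bright one averaged 13.32 ± 0.25 log2 units on day 3 and 13.58 ± 0.16 on day 0 (SD, n = 3 each), and did not pass the test (limma adjusted p = 0.167). The dim one was detected on 0 of 3 arrays on day 3 and on 3 of 3 on day 0 (limma adjusted p = 0.00384). All 7 ES cell markers examined were detected on every array, and 4 of them fell by day 3. Of all genes tested, each by its brightest probe, 17.1% fell by then. The values of each array are log2 intensities after background correction and quantile normalization, and a change is the difference of log2 values between days. A probe was called changed at a limma p under 0.05 after Benjamini-Hochberg adjustment over the 14940 tested probes.

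The start regions of the genes on which the results turn are shown here for reference, each from 250 bases before to 50 bases after the RefSeq start site in GRCm38.p6, read 5′ to 3′ along the gene's strand. Promoters of 6 of the 9 genes were matched in that table. Capitals mark matches, on either strand, to the GC box GGGCGG, the CCAAT box CCAAT, the TATA motif TATANA, the AP-1 motif TGANTCA, the ETS motif CCGGAA or the E-box CACGTG. Fgf4 is at chr7:144861136-144861435 (plus strand), Fgfr2 at chr7:130266759-130267058 (minus strand), and the more upstream of the RefSeq start regions listed for Etv5 at chr16:22439521-22439820 (minus strand).
Fgf4: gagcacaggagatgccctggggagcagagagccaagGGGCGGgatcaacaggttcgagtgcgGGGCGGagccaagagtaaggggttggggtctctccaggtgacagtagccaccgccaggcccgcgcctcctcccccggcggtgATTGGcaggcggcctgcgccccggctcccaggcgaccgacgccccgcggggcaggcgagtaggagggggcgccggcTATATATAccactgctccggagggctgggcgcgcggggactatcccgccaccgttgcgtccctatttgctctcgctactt
Fgfr2: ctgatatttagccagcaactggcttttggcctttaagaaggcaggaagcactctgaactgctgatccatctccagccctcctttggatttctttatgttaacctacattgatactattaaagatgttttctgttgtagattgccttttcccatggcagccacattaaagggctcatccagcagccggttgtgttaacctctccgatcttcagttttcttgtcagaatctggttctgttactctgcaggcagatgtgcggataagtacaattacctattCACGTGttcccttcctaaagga
Etv5: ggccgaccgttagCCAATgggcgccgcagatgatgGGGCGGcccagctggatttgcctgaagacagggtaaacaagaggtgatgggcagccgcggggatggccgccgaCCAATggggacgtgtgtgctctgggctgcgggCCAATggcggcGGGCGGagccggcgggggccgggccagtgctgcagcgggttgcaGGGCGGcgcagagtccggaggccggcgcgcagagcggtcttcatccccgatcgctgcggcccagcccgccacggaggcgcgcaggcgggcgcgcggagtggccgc

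The Fgf4 region had a GC content of 69.7% and held 2 GC boxes, 1 CCAAT box and 2 overlapping TATA matches. The Fgfr2 region was poorer in GC, at 43.7%, and held 1 E-box and none of the other motifs. The Etv5 region had a GC content of 74.0% and held 3 GC boxes and 3 CCAAT boxes. Of the 32851 mouse promoters in the table, 35.7% held a GC box, 37.4% a CCAAT box, 24.7% the TATA motif and 7.15% the E-box. AP-1 matches were found in 7.81% of promoters and ETS matches in 14.9%, and none of the 3 regions printed held either. A match is a run of letters and says nothing about binding.

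Fgf4, the ligand, had a lower mean on each later day. Its probe (ILMN_2608629) read 8.71, 8.15 and 8.17 on day 0, 7.98, 8.20 and 7.88 on day 1, 7.60, 7.39 and 7.64 on day 2, and 5.96, 5.64 and 6.53 on day 3. The day 1 arrays overlapped those of day 0, the day 2 arrays all lay below day 1, and the day 3 arrays all lay below day 2. The mean was 6.04 ± 0.45 on day 3 and 8.34 ± 0.32 on day 0 (SD, n = 3 each), a difference of -2.30 ± 0.21 (SE), or 4.92-fold lower. In that contrast, which is the one that chose Fgf4, 6 of the 14940 tested probes had a more negative difference. The difference from day 0 was -0.32 on day 1 and -0.80 on day 2, and the step from day 2 to day 3 was -1.50.

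On day 3 the Fgf4 probe was at the edge of detection, being detected on 2 of the 3 arrays and not on replicate 2. The size of the difference depended on the background correction, and it was -1.09 without any and -1.83 with a larger offset of 50. The day means of the comparison of day 2 with day 1 come from no array of the contrast that chose the gene, while its error is pooled over all 12 arrays, which were normalized together. In it, Fgf4 differed by -0.48 ± 0.21 (95% interval -0.94 to -0.01) and did not pass (limma adjusted p = 0.202), although the groups did not overlap. A fit of the 6 arrays of these 2 days alone gave an adjusted p of 0.0547. In bulk RNA, fewer cells that make Fgf4 and less Fgf4 RNA per cell cannot be told apart.

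**Figure D1:**
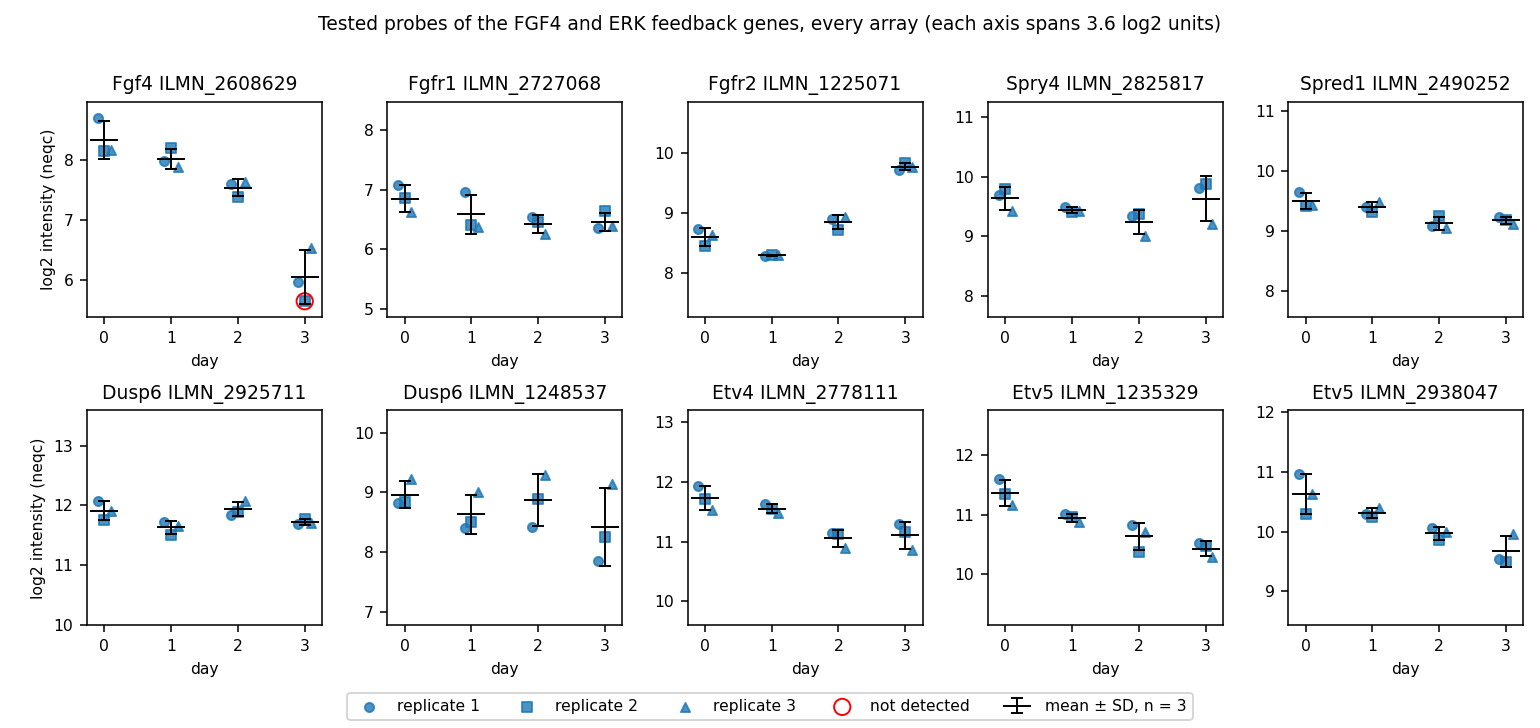
Log2 normalized intensity of each tested probe of the FGF and ERK genes on the 12 arrays, with 1 panel per probe, 1 marker shape per replicate, black bars for the mean ± SD of the 3 arrays of a day, and a red ring where the probe was not detected. Fgf4 is lowest on day 3, between 5.64 and 6.53, and Fgfr2 highest, between 9.72 and 9.83, while Etv4 and Etv5 lie lower on days 2 and 3 than on day 0.

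Fgfr2, a receptor tyrosine kinase for FGFs, was lower on day 1 and higher on day 3 than on day 0. Its bright probe (ILMN_1225071) read 8.73, 8.44 and 8.63 on day 0, 8.28, 8.30 and 8.30 on day 1, 8.90, 8.71 and 8.93 on day 2, and 9.72, 9.83 and 9.77 on day 3. All 3 arrays of day 1 lay below those of day 0, day 2 overlapped day 0, and day 3 lay above every other array. The mean was 9.77 ± 0.06 on day 3 and 8.60 ± 0.15 on day 0, a difference of 1.17 ± 0.12, or 2.25-fold higher. In this contrast, which chose Fgfr2, 605 of the tested probes had a larger positive difference. In the comparison of day 2 with day 1, whose day means use none of the choosing arrays, Fgfr2 rose by 0.55 ± 0.12 or 1.47-fold (limma adjusted p = 0.0143, with the error pooled over all 12 arrays). A fit of these 2 days alone gave an adjusted p of 0.0196. That call was lost when day 1 replicate 1 (adjusted p = 0.0525), day 1 replicate 2 (0.0527) or day 2 replicate 3 (0.0616) was left out, and also without scaling between arrays (0.125). In the main processing, Fgfr2 was the only 1 of the 10 tested probes called between days 1 and 2, where 7.95% of all tested probes were called.

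The 3 other Fgfr2 probes were too dim to test. ILMN_2609887 was detected on 1 array of day 3 and on 1 of day 2, and its day means lay between 5.34 and 6.02. ILMN_2646078 and ILMN_1229167 were detected on 0 of the 12 arrays. The annotation gives the bright probe and the first 2 of these dim ones the same RefSeq transcript, and ILMN_1229167 another, so the difference rests on 1 of 4 probes.

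Fgfr1, the FGF receptor best known for carrying FGF4 signals in ES cells, was dim throughout. Its tested probe (ILMN_2727068) read 7.07, 6.86 and 6.62 on day 0, 6.96, 6.41 and 6.38 on day 1, 6.55, 6.45 and 6.26 on day 2, and 6.35, 6.64 and 6.39 on day 3. The day 2 arrays all lay below day 0, while day 1 and day 3 overlapped it. The difference from day 0 was -0.39 ± 0.18 on day 3 (limma adjusted p = 0.103, 95% interval -0.77 to -0.01) and -0.43 ± 0.18 on day 2 (limma adjusted p = 0.108), and neither passed. Its other probe was detected on 0 of 12 arrays.

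Both ETS factors fell by day 2 and by day 3. Etv5, a PEA3-family factor induced by ERK, had 2 tested probes, and both fell. ILMN_1235329 read 11.60, 11.34 and 11.17 on day 0, 11.01, 10.96 and 10.88 on day 1, 10.82, 10.37 and 10.70 on day 2, and 10.53, 10.47 and 10.29 on day 3. Every later array lay below every day 0 array. It fell by 0.94 ± 0.15 on the log2 scale by day 3, or 1.91-fold (limma adjusted p = 0.00043), and by 0.73 ± 0.15 by day 2 (limma adjusted p = 0.00508). The day 2 call was lost without scaling between arrays (adjusted p = 0.320).

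The second Etv5 probe (ILMN_2938047) read 10.96, 10.29 and 10.63 on day 0, 10.30, 10.24 and 10.40 on day 1, 10.06, 9.85 and 10.00 on day 2, and 9.55, 9.50 and 9.96 on day 3. Days 2 and 3 lay wholly below day 0, and day 1 overlapped it. It fell by 0.96 ± 0.17 by day 3, or 1.94-fold (limma adjusted p = 0.00105), and by 0.66 ± 0.17 by day 2 (limma adjusted p = 0.0197). The day 2 call was lost without day 0 replicate 1 (adjusted p = 0.0782), without day 2 replicate 2 (0.0736) and without scaling between arrays (0.560).

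Etv4, the close relative of Etv5, reached its lower level by day 2. Its probe (ILMN_2778111) read 11.94, 11.71 and 11.53 on day 0, 11.62, 11.54 and 11.48 on day 1, 11.15, 11.12 and 10.89 on day 2, and 11.30, 11.16 and 10.86 on day 3. Days 2 and 3 overlapped each other and lay wholly below day 0. Etv4 fell by 0.62 ± 0.15 by day 3, or 1.54-fold (limma adjusted p = 0.00579), and by 0.67 ± 0.15 by day 2 (limma adjusted p = 0.00789). Without scaling between arrays both calls were lost (adjusted p = 0.0631 for day 3 and 0.340 for day 2). The step from day 1 to day 2, -0.49 ± 0.15, did not pass (limma adjusted p = 0.0611). It passed in 8 of 23 alternative settings, among them the replicate block (adjusted p = 0.0139) and the deposited normalized table (0.0207).

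The feedback inhibitors among the 9 genes come next. Spred1, a membrane protein that blocks RAF activation, read 9.66, 9.41 and 9.43 on day 0, 9.40, 9.32 and 9.49 on day 1, 9.08, 9.26 and 9.05 on day 2, and 9.24, 9.19 and 9.12 on day 3 (ILMN_2490252). Days 2 and 3 lay wholly below day 0. It fell by 0.37 ± 0.12 by day 2 (limma adjusted p = 0.0446), a call lost in 15 of 23 alternative settings. Over all 23, the adjusted p ranged from 0.0225 to 0.922. The day 3 difference, -0.32 ± 0.12, missed the threshold (limma adjusted p = 0.0513) and passed it with the replicate number as a block (adjusted p = 0.0447).

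Dusp6, a cytoplasmic phosphatase that removes the activating phosphates from ERK, had a bright probe with no called change. ILMN_2925711 read 12.07, 11.76 and 11.90 on day 0, 11.73, 11.51 and 11.66 on day 1, 11.84, 11.89 and 12.07 on day 2, and 11.68, 11.77 and 11.70 on day 3. Day 1 lay wholly below day 0, and days 2 and 3 overlapped it. The difference on day 3 was -0.20 ± 0.12 (limma adjusted p = 0.235).

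A second Dusp6 probe (ILMN_1248537) read 8.82, 8.85 and 9.22 on day 0, 8.40, 8.50 and 9.01 on day 1, 8.42, 8.89 and 9.29 on day 2, and 7.86, 8.26 and 9.14 on day 3. Replicate 3 was the highest array on each of the 4 days. The day 3 difference was -0.54 ± 0.30 (limma adjusted p = 0.183), and with the replicate number as a block it was -0.54 ± 0.16 and passed (adjusted p = 0.0175). Without day 3 replicate 3 it was -0.90 and passed as well (adjusted p = 0.0165). The remaining Dusp6 probe was detected on 2 of 12 arrays.

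Spry4, a Sprouty inhibitor of receptor signalling to ERK, read 9.69, 9.79 and 9.43 on day 0, 9.49, 9.40 and 9.43 on day 1, 9.35, 9.38 and 9.01 on day 2, and 9.81, 9.89 and 9.20 on day 3 (ILMN_2825817). Day 2 lay wholly below day 0, and day 3 spread across the day 0 range. The 95% interval of the day 3 difference ran from -0.39 to 0.39 (limma adjusted p = 0.994). On day 2 the difference from day 0 was -0.39 ± 0.18 (limma adjusted p = 0.152). From day 2 to day 3 it was 0.39 ± 0.18 and did not pass (limma adjusted p = 0.189), but it was 0.61 and passed without day 3 replicate 3 (adjusted p = 0.0228). Spry2, another Sprouty gene, had 1 probe, which was detected on 0 of 12 arrays.

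Counted over the 8 tested probes of the 6 genes other than Fgf4 and Fgfr2, 3 fell and 0 rose by day 3. The falls were Etv4 and the 2 probes of Etv5, so probes of the same gene are counted apart. In that comparison 36.8% of all tested probes were called, and 18.6% fell. With the replicate number as a block, 5 of the 8 were called, against 43.3% of all tested probes. By day 2 the count was 4 falls (these and Spred1) and 0 rises, where 19.1% of all tested probes were called and 7.63% fell. On day 1 none of the 8 was called by limma, while 2 had an unadjusted p under 0.05, as did 9.36% of all tested probes. On that day 0.0134% of all tested probes were called (2 probes), or 0.0268% with the block (4 probes). Between days 2 and 3 none of the 8 was called by limma and 0 had an unadjusted p under 0.05, against 9.87% of all tested probes called and 26.9% with such a p. The median difference of the 8 was -0.47 on day 3 and -0.41 on day 2, beside -0.03 and -0.01 over all tested probes. The arrays of the groups did not overlap for 4 of the 8 on day 3 and 6 of the 8 on day 2, against 43.6% and 37% of all tested probes. These comparisons share the day 0 arrays.

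**Figure D2:**
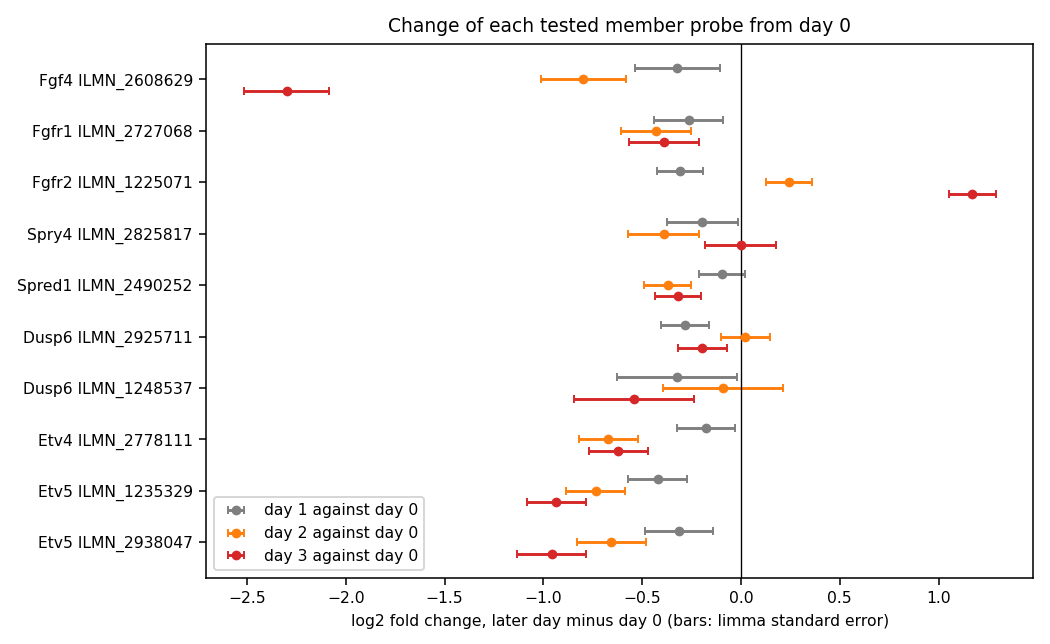
Difference in log2 intensity of each tested probe for days 1, 2 and 3 against day 0, with bars for the standard error of the limma fit. Fgf4 reaches -2.30 and Fgfr2 1.17 on day 3, which are the values that chose them, and the ETS factors lie between -0.62 and -0.96.

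The rest of the pathway was read from lists of genes by role, each gene by its brightest tested probe. Over all 9934 genes tested this way, 20.7% rose and 17.1% fell by day 3, with a median difference of 0.01. By day 2, 13.8% rose and 6.65% fell. Of 21 other genes of the FGF family, 5 were tested, and by day 3 3 fell, 0 rose and 2 did not pass. Their median was -0.67 (-0.37 with undetected genes at their bound). Fgf17, a relative of Fgf8, averaged 8.36 ± 0.14 on day 3 and 10.29 ± 0.23 on day 0 (SD, n = 3 each), and it fell by 1.93 on the log2 scale (limma adjusted p = 1.52e-06). Fgf15, which lies next to Fgf4 on chromosome 7, fell by 0.67 (limma adjusted p = 0.01). Fgf1 was detected on 0 of 3 arrays on day 3 and 3 of 3 on day 0 and was at least 1.29-fold lower under this background correction, taken against the detection limit (limma adjusted p = 0.00625). Without background correction Fgf1 differed by -0.26 and Fgf15 by -0.27. Without scaling between arrays 1 of the 5 FGF genes fell, and Fgf1 (adjusted p = 0.0967) and Fgf15 (0.146) lost their calls. On day 2, 1 of the 5 FGF genes, Fgf17, had fallen.

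Of 19 further receptors, co-receptors and heparan sulfate genes, 12 were tested, of which 2 rose and 2 fell by day 3 (median 0.23). The counts were 1 rise and 0 falls without scaling between arrays. They were 1 and 1 in a fit of the 2 days alone, without day 0 replicate 1 or without day 0 replicate 2. Fgfrl1, an FGF receptor without a kinase domain, rose by 0.95 (limma adjusted p = 0.00156), and Hs6st1, which adds 6-O sulfate to heparan sulfate, rose by 0.73 (limma adjusted p = 0.0195). Ext1, which polymerizes the heparan sulfate chain, fell by 0.75 (limma adjusted p = 0.000308), a call lost without scaling between arrays (adjusted p = 0.0504). Gpc4, a glypican that carries such chains, was detected on 1 of 3 arrays on day 3 and fell by 0.83 (limma adjusted p = 0.0498), a call lost in 16 of the 23 alternative settings, among them the replicate block (adjusted p = 0.0536). The Hs6st1 call was lost without day 0 replicate 1 (adjusted p = 0.0884), day 0 replicate 2 (0.0503) or day 3 replicate 3 (0.0688). It was also lost without scaling between arrays (adjusted p = 0.304) and in the fit of the 2 days alone (0.0637). Without background correction Fgfrl1 differed by 0.41 and Gpc4 by -0.30. The syndecan Sdc1 differed by 0.34 and did not pass (limma adjusted p = 0.108), but it passed with the block (adjusted p = 0.036).

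Of the 24 genes of the relay from RAS to ERK, 15 were tested, and 2 rose, 1 fell and 12 did not pass by day 3 (median -0.22). These counts depended on the processing, with 1 rise and 4 falls under 75th-percentile scaling, 2 and 4 without background correction or in the deposited normalized table, 1 and 0 in a fit of the 2 days alone, and 0 and 0 by limma without scaling between arrays. Ptpn11, the phosphatase SHP2 that couples receptors to RAS, rose by 0.56 (limma adjusted p = 0.00395), and Map2k2, which encodes MEK2, rose by 0.43 (limma adjusted p = 0.0124; 0.0857 with 75th-percentile scaling). Rasa1, a RAS GTPase-activating protein, fell by 0.56 (limma adjusted p = 0.0226), a call lost without day 0 replicate 1 (adjusted p = 0.0975) or day 3 replicate 2 (0.0858). On day 2, 0 of the 15 were called by limma. Another 6 genes of this list are not analysed here.

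Several other inhibitors of the pathway rose. Of 15 genes, 10 were tested, and by day 3 5 rose, 1 fell and 4 did not pass (median 0.30). Without scaling between arrays the counts were 3 rises and 0 falls. Dusp4, a nuclear ERK phosphatase, averaged 10.96 ± 0.16 on day 3 and 9.25 ± 0.01 on day 0, a rise of 1.70 (limma adjusted p = 4.91e-06). Dusp2, another nuclear phosphatase, was detected on 3 of 3 arrays on day 3 and 0 of 3 on day 0 and was at least 3.03-fold higher under this background correction (limma adjusted p = 3.75e-06). Without it, Dusp2 differed by 0.88 and Spred2 by -0.27 on the log2 scale. Rasa3, a RAS and RAP GTPase-activating protein, rose by 1.43 (limma adjusted p = 1.02e-05). Rasa1, also a RAS GTPase-activating protein, was counted in the relay list above, where it fell. Spred2, the paralog of Spred1, fell by 0.79 (limma adjusted p = 0.0248), a call lost without day 0 replicate 1 (adjusted p = 0.107), day 0 replicate 2 (0.064) or day 3 replicate 3 (0.0758). The difference in direction between these genes and the 9 was not tested.

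Genes of transcription known to answer ERK were also split. Of 19, 13 were tested, with 6 rises and 3 falls by day 3 (median 0.09), or 1 rise and 1 fall without scaling between arrays, where Egr1 (adjusted p = 0.0625), Fos (0.0662) and Myc (0.0725) lost their calls. The immediate-early genes Ier3, Egr1 and Fos rose by 1.14, 1.07 and 1.04 (limma adjusted p = 0.00162, 4.84e-05 and 0.000588). Gbx2, a homeobox gene, fell by 0.97 (limma adjusted p = 5.16e-05). Myc was detected on 0 of 3 arrays on day 3 and 3 of 3 on day 0, and was at least 1.27-fold lower under this background correction (limma adjusted p = 0.00403). Without it, Myc differed by -0.30 and Fos by 0.60. Elk4, an ETS factor of the ternary complex, fell by 0.46 (limma adjusted p = 0.0452), and 14 of the 23 alternative settings lost that call.

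Pluripotency transcription factors, among which Pou5f1 and Sox2 are known to activate Fgf4, either fell or did not pass. All 12 listed were tested, and 6 fell, 0 rose and 6 did not pass by day 3 (median -0.36). Prdm14 fell by 2.24 (limma adjusted p = 1.13e-06; difference -1.18 without background correction), Sox2 by 0.80 (limma adjusted p = 0.00121) and Nanog by 0.73 (limma adjusted p = 0.00843). By day 2, 2 of the 12 had fallen.

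**Figure D3:**
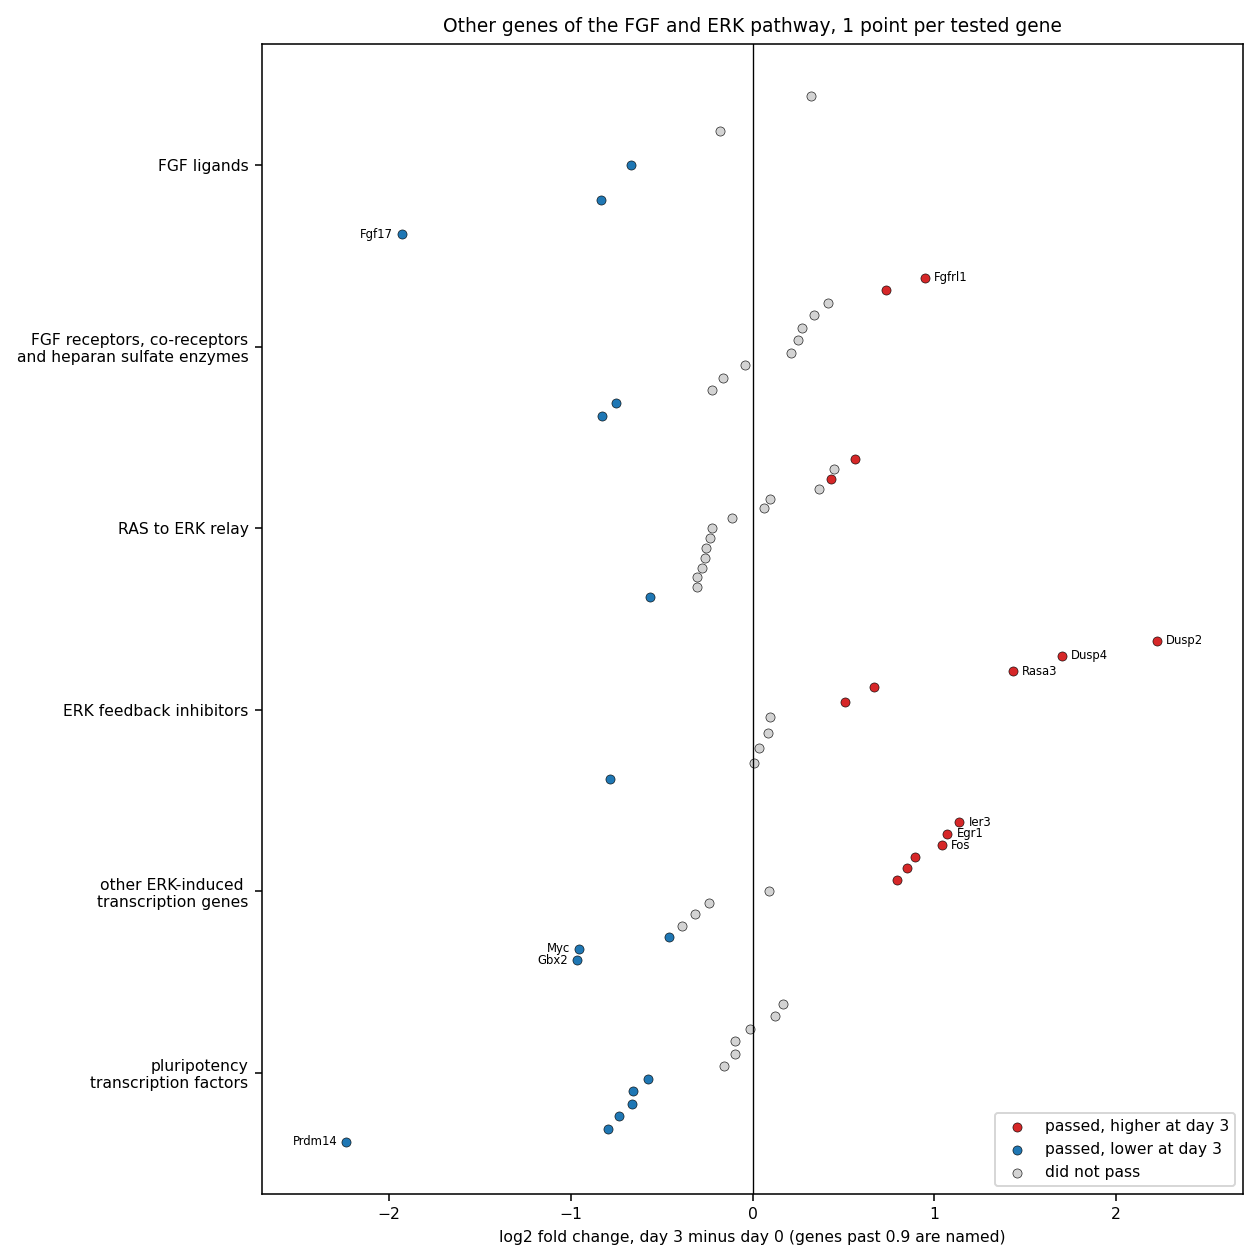
Log2 difference of day 3 against day 0 for the tested genes of 6 lists, with 1 point per gene, coloured by whether the gene passed the limma test as higher or lower. Fgf17 lies at -1.93 and Prdm14 at -2.24, while Dusp2, Dusp4 and Rasa3 lie on the higher side of the row labelled ERK feedback inhibitors. The row labelled FGF ligands holds the other FGF family genes that were tested.

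Some markers of other cell types were also called by day 3, when 20.7% of all genes tested rose and 17.1% fell. Their part in the differences above was not tested. Of 16 primitive endoderm markers, 9 were tested, and by day 3 2 rose and 2 fell. Amn rose by 4.00 (limma adjusted p = 1.46e-08) and Dab2 by 0.85 (limma adjusted p = 0.00032). The falls were Sox7, which differed by -0.80 (limma adjusted p = 0.00471), and Lamc1, by -0.38 (limma adjusted p = 0.0489). The Lamc1 call was lost in 14 of the 23 alternative settings. The defining factors Gata4, Sox17 and Foxa2 were detected on 0 of 12 arrays and Gata6 on at most 2. The summed intensity of the tested ones was 7863 to 9303 on day 3 and 6809 to 8405 on day 0. Of 12 trophectoderm markers, 8 were tested, 5 rose and 1, Cdx2, fell. The largest rises were Gata3 by 1.36 (limma adjusted p = 0.00126), Tfap2c by 0.77 (limma adjusted p = 0.000329) and Krt7 by 0.66 (limma adjusted p = 0.0125). Cdx2 differed by -0.52 (limma adjusted p = 0.0166). Without background correction Gata3 differed by 0.47, Krt7 by 0.39 and Cdx2 by -0.25. The counts were 2 rises and 1 fall without day 0 replicate 1, 2 and 0 without day 3 replicate 2, and 1 and 0 without scaling, and the Cdx2 call was also lost without day 0 replicate 2 (adjusted p = 0.0687). Their sum was 15518 to 17084 on day 3 and 10393 to 11725 on day 0, with Eomes, Elf5 and Hand1 detected on 0 of 12 arrays. Of 8 fibroblast markers, 2 were tested and 1, Thy1, rose, while Dcn, Lum and Postn were detected on 0 of 12 arrays. Their sum was 4020 to 5984 on day 3 and 1954 to 2631 on day 0. The 7 ES cell markers, some of which are also in the list of pluripotency factors, summed to 100586 to 104234 on day 3 and 116934 to 125438 on day 0.

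The genes whose values over the 12 arrays followed Fgf4 most closely were Cmtr2 (r = 0.975), Mettl4 (0.973), Rlf (0.973), Sall2 (0.972) and Arnt (0.972). Those most like Fgfr2 were Ccdc3 (r = 0.974), Actc1 (0.963), Ing2 (0.962), St8sia5 (0.961) and Asb2 (0.958). These are Pearson correlations over arrays that share 4 days, so any gene that moves by day scores high, and they are given as a description.

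**Figure D4:**
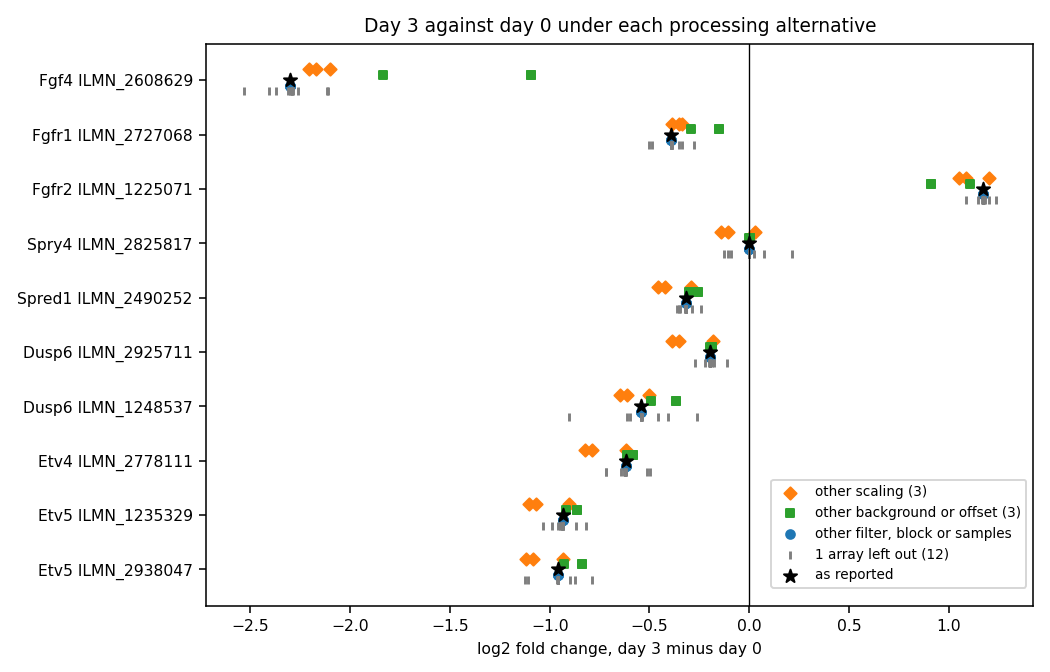
Log2 difference of day 3 against day 0 for each tested probe under the main processing and its alternatives, with a star for the values given above, diamonds for other scaling, squares for other background settings, circles for other filters or fits, and ticks for each array left out. Fgf4 spans -2.53 to -1.09, and the Etv4 and Etv5 probes stay below 0 in every setting shown.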

How the data were processed

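The authors deposited a non-normalized table with, for each probe and array, an intensity (linear scale) and a detection p-value. They used GenomeStudio, per the submitters' processing notes, with settings not given in the sources used here. A second deposited table, of normalized intensity, served as an alternative. From the first table, log2 values were obtained with limma 3.58.1 (R 4.3.3): neqc took the background from the detection p-values, added an offset of 16 and quantile normalized the arrays. Tested probes had 1 gene symbol and a detection p under 0.01 on 3 or more arrays (14940 probes). All 12 arrays entered a single lmFit and eBayes model with a mean for each day, giving 5 two-sided comparisons, each adjusted by Benjamini-Hochberg over all tested probes. The code was tested on simulated data.

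The members and gene lists were chosen with earlier results of these data known. Named were all probes of the 9 genes, up to 3 called rises and 3 called falls per list, and the 5 genes most like Fgf4 and Fgfr2. Sdc1 and the marker genes singled out were named after their values were seen. A probe undetected on all arrays of a day was set against the lowest intensity of a detected probe, as a bound. Symbols came from the platform annotation, and 34807 of 34885 probes matched RefSeq. No label says that replicates were separate cultures, so a p-value here reflects the variation among these arrays, whose number limits the precision. Same-numbered arrays were taken as paired if their deviations from the day means correlated above 0.1 in every pair. Days 1 and 3 against day 0 met this limit (r from 0.187 to 0.43). Day 3 against day 2 missed it through replicate 2 (r = 0.345, 0.0777 and 0.44 for replicates 1 to 3). Day 2 against day 0 (r from -0.0285 to 0.24) and day 2 against day 1 (-0.0166 to 0.251) missed it too. Alternatives were scaling, background, filter, probe choice, the replicate block, fits of 2 days and leaving out each array.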

Additional observations from a re-analysis of the deposited data

How the results depend on the processing

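Of the tests and differences of the members under up to 23 alternatives, 1059 stayed the same, 25 lost a call, 19 gained one and 25 changed sign. Another 12 moved by more than the spread. A test stayed the same if it kept its direction and its side of the threshold. A difference of Fgf4 or Fgfr2 given with no test did so if it moved by less than the larger SD of the 2 days. No sign change was of a called difference. Without scaling between arrays, Fgfr1 changed sign to 0.17 (day 2 against day 1) and -0.29 (day 3 against day 2), Spry4 to 0.12 and -0.020 and Spred1 to 0.040 and -0.36 in the same 2 comparisons, Etv4 to -0.31 (day 3 against day 2) and the dimmer Dusp6 probe to 0.19 (day 2 against day 0). Spry4 on day 3 was 0.027 with cyclic loess and 0.00175 without background correction or in the deposited normalized table, and the bright Dusp6 probe on day 2 was -0.011 with cyclic loess and -0.20 with 75th-percentile scaling. Leaving out single arrays gave -0.30 to 0.13 for the dimmer Dusp6 probe (day 2 against day 0), -0.055 to 0.10 for the bright Dusp6 probe (day 2 against day 0), -0.046 to 0.17 for Etv4 (day 3 against day 2), -0.27 to 0.023 for Fgfr1 (day 2 against day 1), -0.048 to 0.11 for Fgfr1 (day 3 against day 2) and -0.13 to 0.21 for Spry4 (day 3 against day 0). The cause of these changes was not tested.

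Counts of called probes depended on scaling: without it 1, 1126, 1637, 375 and 217 probes were called, against 2, 2859, 5493, 1188 and 1474 in the main processing. The order is days 1, 2 and 3 each against day 0, then the step into day 2 and the step into day 3. The median of all probes then stood at 0.24, -0.12, 0.28 and -0.36 in the last 4 comparisons. Rises made up 60.1%, 49.4%, 63.6% and 46.6% of the calls there, 97.9%, 54.1%, 99.2% and 10.6% without scaling, and 41.4%, 42.2%, 45.5% and 51.7% with 75th-percentile scaling, which put the day 2 median at -0.11. The replicate block gave 4 calls for day 1 against day 0, 1849 for day 2 against day 1 and 2391 for day 3 against day 2. With 1 probe per gene 10 were called on day 1, and a fit of the 2 days alone called 0 on day 1 and 615 for day 3 against day 2. Leaving out single arrays gave 0 to 7, 1799 to 3297, 4379 to 5609, 501 to 1484 and 609 to 2249 calls in the same order. For comparisons that missed the pairing limit, the block added 1 member call, Etv4 for day 2 against day 1 (adjusted p = 0.0139). Signal close to background limits Fgf4 on day 3, Fgfr1 and the 6 untested probes.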

Other observations

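Fgf4 lies on chromosome 7 between Fadd, Ano1 and Fgf3 on one side and Fgf15, LTO1 and Ccnd1 on the other, among protein-coding genes of the RefSeq table. Fgf15 averaged 6.46 ± 0.20 log2 units on day 3 and 7.13 ± 0.20 on day 0 (SD, n = 3 each). Ccnd1, which encodes cyclin D1, averaged 11.95 ± 0.04 on day 3 and 12.34 ± 0.31 on day 0, and its difference of -0.39 did not pass (limma adjusted p = 0.0505). It passed with the replicate number as a block (adjusted p = 0.0307). Fadd, the adaptor of death receptors, differed by 0.18 (limma adjusted p = 0.355) and LTO1 by 0.36 (limma adjusted p = 0.0982). Ano1 and Fgf3 were not detected on enough arrays to be tested.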
